A study of Mus musculus with 12 samples.

Results

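The genes described here encode the proteins of the cytosolic ribosome. They were taken as every row of the deposited tables that is labelled protein coding and whose symbol starts with Rpl or Rps and a number, without the Rps6k kinases. This gave 88 genes of 57180: 43 proteins of the large (60S) subunit, 30 of the small (40S) subunit, 8 paralogs, 6 retrocopies labelled protein coding, and Rps19bp1, which binds a ribosomal protein and is not part of the ribosome. Of the 88, 83 had enough counts to be tested. The rule leaves out Rplp0, Rplp1, Rplp2, Rpsa, Fau and Rack1, which also encode ribosomal proteins under other names and are given apart. The tissue was mouse spinal cord at the T9-T10 lesion with margins of about 0.5 cm, from female C57BL/6J wild-type mice, taken 7 days after injury by clip compression. All groups therefore carry the injury, and no uninjured or sham-operated cord was analysed here. SCI7 was injured with no ovariectomy named. In OVX2_SCI7 an ovariectomy preceded the injury by 2 weeks, and in OVX8_SCI7 by 8 weeks. Each group held 4 libraries labelled as biological replicates. All 12 libraries carry the same age label of 8 weeks and the same batch code. The label does not say at which event that age was reached, and whether animals were pooled is not given in the sources used here.

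The ribosome is built from ribosomal RNA and about as many proteins as there are core genes here, each needed in equal number, so their mRNAs are usually made and translated in step. In mammals these mRNAs begin with a C followed by a run of pyrimidines, the TOP motif, through which growth signals acting on the kinase mTOR and on Larp1 set their translation. After cord injury the lesion fills with microglia and blood-derived macrophages, cells that divide and secrete, while neurons and glia are lost. In bulk tissue, fewer cells of a type and less RNA per cell cannot be told apart. The core genes were abundant here: their mean levels in SCI7 ran from 13.2 to 1300 TPM (a transcript level per length, scaled to the same total in each library), with a median over the 73 core genes of 441 TPM.

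Stretches around the annotated transcription start are shown for 3 genes that the results turn on, to set their start sites beside the TOP motif. The windows run from 40 bases before the start through the first 20 bases of the transcript. Capitals mark a C followed by 4 or more pyrimidines that begins within 5 bases of the start. Shown are Rps6 and Rpl28, both higher after ovariectomy 8 weeks before injury, and Rpl5, which was lower.
Rps6: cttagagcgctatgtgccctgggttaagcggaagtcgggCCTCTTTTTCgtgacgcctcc
Rpl28: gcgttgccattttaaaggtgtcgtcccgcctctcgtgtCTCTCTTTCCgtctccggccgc
Rpl5: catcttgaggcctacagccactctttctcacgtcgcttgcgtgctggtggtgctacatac
These come from RefSeq on GRCm38.p6, while the deposited values were made on GRCm39. Rps6 lies at chr4:86857348-86857407 on the minus strand, Rpl28 at chr7:4792925-4792984 on the plus strand and Rpl5 at chr5:107900488-107900547 on the plus strand. The tract was found within 5 bases of the start, on the transcribed strand, in 26 of the 54 core genes with a promoter entry (48.1%), and in 21.1% of 26971 other genes. Exactly at the annotated start it was found in 12 of 54 (22.2%) against 2.97% of other genes. In 28 of the 54 no such tract began within 5 bases of the start. Rpl5 was among them, and so was Rpl13, which was higher after ovariectomy 8 weeks before injury. In Rpl5 a run of this kind lies farther upstream in the window. A missing match says only that these letters do not begin there.

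The deposited expected counts summed to between 18222809 and 31781728 per library, and the deepest library was OVX8_SCI7 replicate 2. Several measures of the libraries moved with the groups. The mean length of the sequenced fragments, recovered from the deposited counts and FPKM over 509 genes with 1 transcript, was 194 to 229 bases in SCI7, 229 to 304 bases in OVX2_SCI7 and 257 to 305 bases in OVX8_SCI7. Mitochondrial genes took 5.35% to 9.35% of counts in SCI7, 2.36% to 8.33% in OVX2_SCI7 and 2.2% to 3.36% in OVX8_SCI7. The rank correlation between a gene's GC content and its deviation from its mean over libraries, across 15087 genes within each library, was -0.81 to -0.49 in SCI7, -0.41 to 0.51 in OVX2_SCI7 and 0.16 to 0.84 in OVX8_SCI7. OVX2_SCI7 replicate 1 lay within or next to the SCI7 range in each of these measures.

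Summed over the 88 genes, the SCI7 libraries held 33811, 31829, 24323 and 42782 TPM. The OVX2_SCI7 libraries held 27285, 42790, 94570 and 77892 TPM, and the OVX8_SCI7 libraries 79018, 60757, 53098 and 51702 TPM. All 4 OVX8_SCI7 libraries lay above all 4 SCI7 libraries, while OVX2_SCI7 split, with replicates 1 and 2 within or next to the SCI7 range and replicates 3 and 4 well above. The group means were 33186 ± 7591 TPM (SD, n = 4) in SCI7, 60634 ± 30984 TPM in OVX2_SCI7 and 61144 ± 12564 TPM in OVX8_SCI7, ratios to SCI7 of 1.83 and 1.84. As a share of all counts, which is not divided by length, the family took 0.97% ± 0.21, 1.59% ± 0.81 and 1.55% ± 0.35 (SD, n = 4 each), and the ratios were smaller, at 1.64 and 1.60. The 60S sum of OVX8_SCI7 differed less from SCI7 than the 40S sum did: the ratio of 60S to 40S was 1.26 ± 0.03 in SCI7 and 1.18 ± 0.05 in OVX8_SCI7 (SD, n = 4 each), with the 4 OVX8_SCI7 values between 1.12 and 1.22 and the 4 SCI7 values between 1.23 and 1.3. In OVX2_SCI7 it was 1.19 ± 0.11, at 1.3 and 1.27 in replicates 1 and 2, next to or within the SCI7 range, and 1.1 in each of replicates 3 and 4. These ratios are of TPM, which depends on the effective length described below, so they do not show a change in the balance of the subunits. From counts, the median log2 fold changes of 60S and 40S genes were 0.62 and 0.67 in OVX8_SCI7, and 0.76 and 0.78 in OVX2_SCI7 (edgeR fit).

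**Figure D1:**
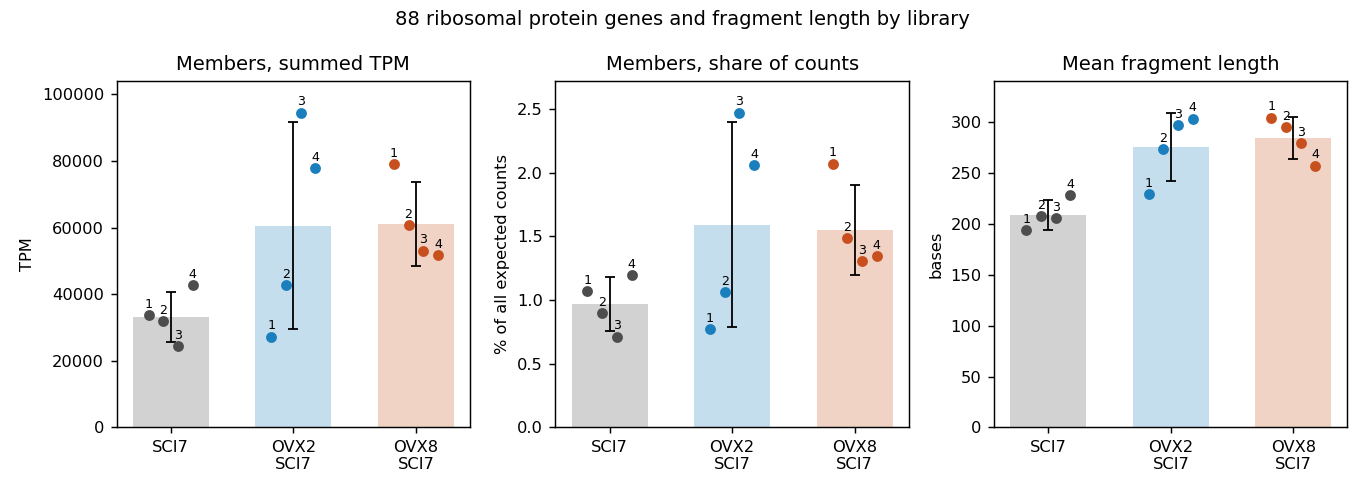
Summed TPM of the 88 genes, their percentage of all expected counts, and the mean fragment length in bases, by library. Points are libraries with their replicate number, bars are group means and error bars are SD (n = 4). OVX2_SCI7 replicates 1 and 2 sit at 27285 and 42790 TPM and replicates 3 and 4 at 94570 and 77892 TPM.

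In the comparison of OVX8_SCI7 with SCI7, which asks how ovariectomy 8 weeks before injury relates to the injured cord, most of the family leaned upward but few genes passed the test. Of the 83 tested genes, 78 had a positive log2 fold change, and the median was 0.66, against 50.9% positive and a median of 0.01 over all 17820 genes tested. At an adjusted p below 0.05 (edgeR quasi-likelihood test, Benjamini-Hochberg over all genes) 6 of 83 rose, a share of 7.23%, against a background of 11.9% of all genes, and 1 of 83 fell, against 15.6%. The share of the family called higher was thus below that of all genes, while its median was above theirs. The median SE over the family was 0.38 on the log2 scale. By the ranges of counts scaled to library size (CPM), 41 of 83 genes had all 4 OVX8_SCI7 libraries above all 4 SCI7 libraries (49.4%, background 19.6%) and 1 had them all below (background 19.6%).

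The genes that rose were Rps6, Rpl28, Rpl13, Rpl27, Rps4l and Rps19bp1. Rps6, the 40S protein phosphorylated by the S6 kinases, had 185, 144, 131 and 234 CPM in SCI7 and 382, 324, 326 and 341 CPM in OVX8_SCI7, and the groups did not overlap. Its log2 fold change was 0.98 (SE 0.28, adjusted p = 0.0258, edgeR). Rpl28, a 60S protein, showed the largest change: 62.7, 43.3, 35.9 and 63.1 CPM in SCI7 against 224, 149, 122 and 99.4 CPM, a log2 fold change of 1.53 (SE 0.51, adjusted p = 0.0421, edgeR). Rpl13, also of the 60S subunit, went from 152, 117, 95.7 and 175 CPM to 446, 379, 285 and 235 CPM, again without overlap. That is a log2 fold change of 1.32 (SE 0.43, adjusted p = 0.0412, edgeR). Rpl27, another 60S protein, held 40.9, 31.5, 28.8 and 83.3 CPM in SCI7, with replicate 4 above the others, and 152, 102, 90.9 and 96.4 CPM in OVX8_SCI7. Its log2 fold change was 1.26 (SE 0.43, adjusted p = 0.0455, edgeR). The other 2 are less abundant. Rps19bp1, whose product binds Rps19 and is known as a cofactor of the deacetylase Sirt1, held 7.08, 4.83, 4.80 and 7.72 CPM in SCI7 and 13.6, 12, 9.04 and 8.64 CPM in OVX8_SCI7, with no overlap (log2 fold change 0.82, SE 0.27, adjusted p = 0.0388, edgeR). Rps4l, a paralog of Rps4x, held 10.9, 9.35, 9.98 and 14.8 CPM against 25.7, 29.6, 22.7 and 13.0 CPM, and here OVX8_SCI7 replicate 4 fell inside the SCI7 range (log2 fold change 1.01, SE 0.33, adjusted p = 0.0393, edgeR).

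Just outside the threshold stood Rps14 (log2 fold change 1.32, adjusted p = 0.0505), Rps16 (1.37, adjusted p = 0.0570) and Rpl36 (1.29, adjusted p = 0.0647), all by edgeR, which share the largest changes with Rpl28, Rpl13 and Rpl10-ps3. Rps14 and Rps16 are 40S proteins and Rpl36 is a 60S protein. All 3 had CPM ranges that did not overlap between the groups.

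The calls depended on which libraries and which processing were used. Leaving out SCI7 replicate 1, 2 or 3, or OVX8_SCI7 replicate 1 or 3, left 1 call, Rpl5 (6.7% to 16.1% of all genes were called in these fits), and leaving out OVX8_SCI7 replicate 2 left 0, where 0 of all 18130 genes were called. Without OVX2_SCI7 replicate 1 or 3, libraries that enter this comparison only through the shared spread, the count was 25 or 19, which is 30.1% or 22.9% of the family against 37.2% or 33.4% of all genes. Fitting the 8 libraries alone gave 43 calls (51.8%, background 43.0%) and DESeq2 gave 19 (22.9%, background 35.9%). Correcting for GC content and length gave 0 calls, where 0.0% of all 17448 genes were called, with a median of 0.34 and 73 of 83 genes positive. With the mean fragment length of each library as a term in the fit, the median was -0.74 and no gene of the 83 was positive, with 0 called, again against 0.0% of all genes. The direction of the family in this comparison is thus not separate from fragment length in these libraries: the SCI7 lengths (194 to 229 bases) and the OVX8_SCI7 lengths (257 to 305 bases) do not overlap, and the 2 cannot be told apart.

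**Figure D2:**
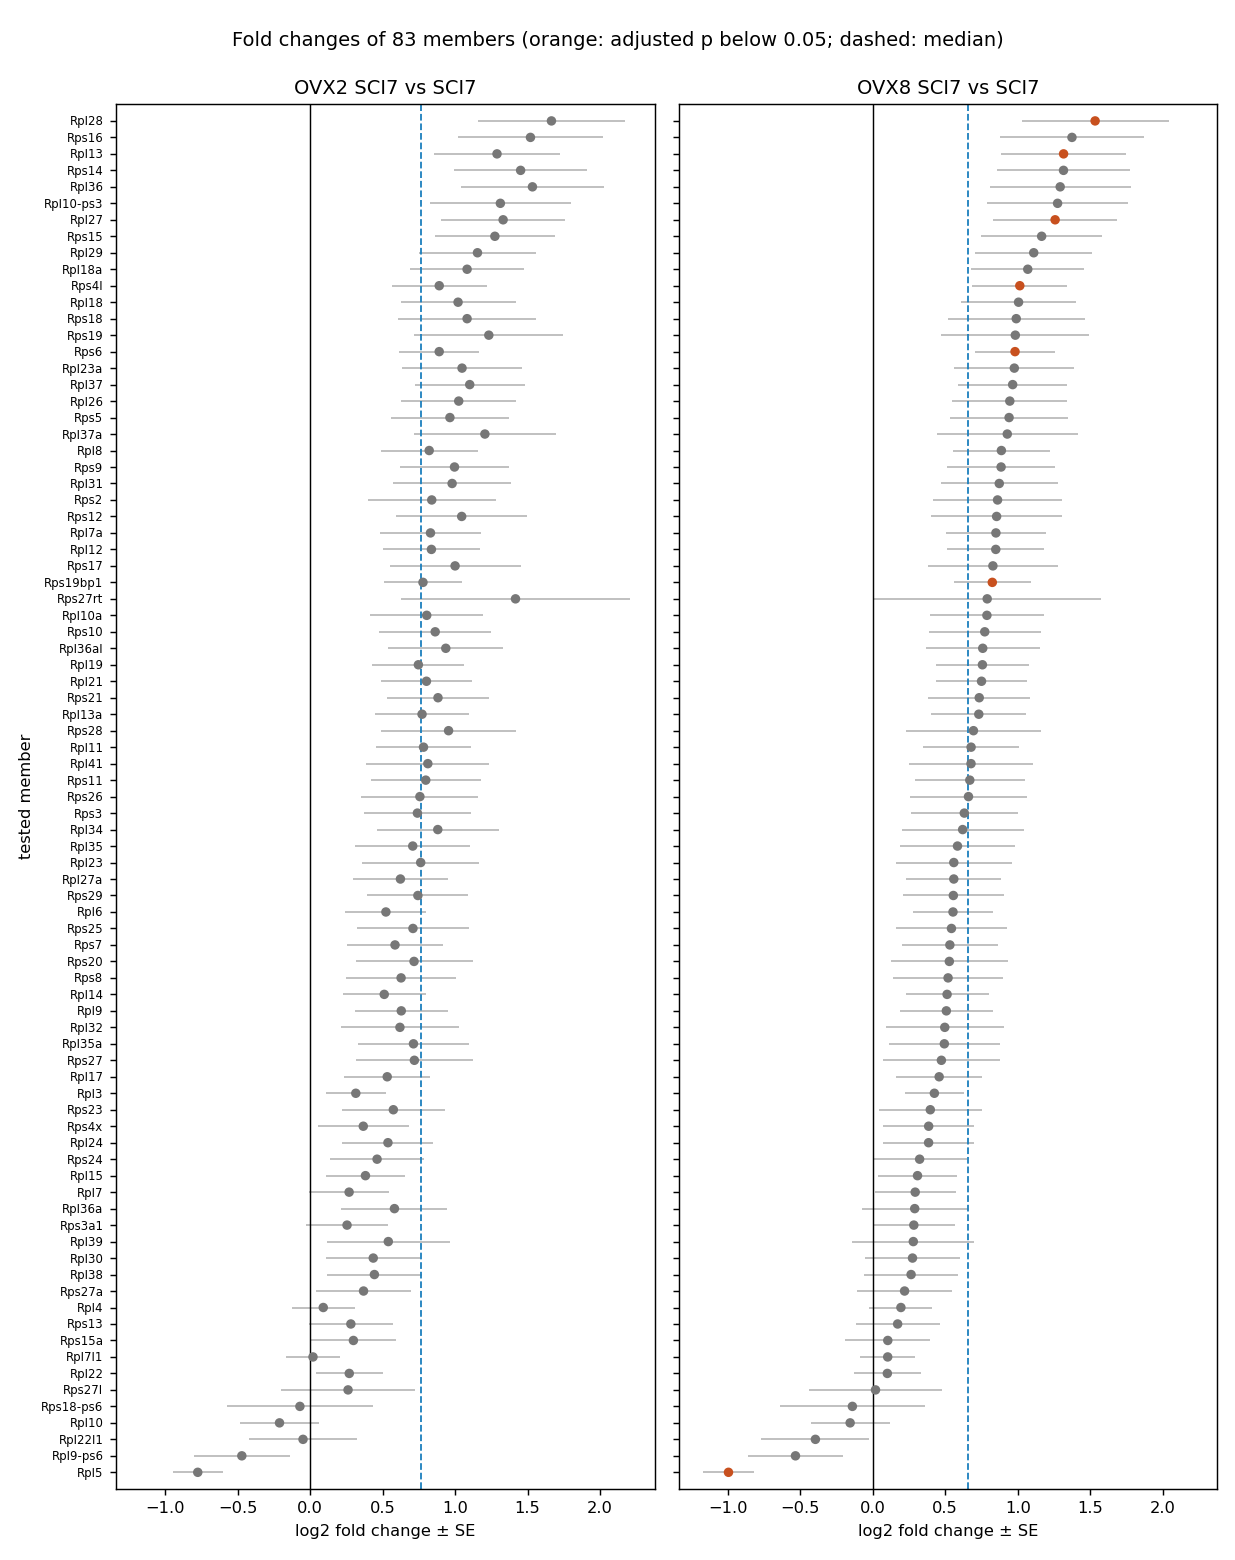
Log2 fold change with SE of the 83 tested genes in both comparisons with SCI7, ordered by the OVX8_SCI7 comparison. Orange points have an adjusted p below 0.05 and the dashed lines are the medians of 0.76 and 0.66. Rpl5 is the lowest in both panels.

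Rpl5 went against the family. Its protein joins Rpl11 and the 5S ribosomal RNA in a particle that is built into the 60S subunit and that, when free, binds Mdm2, the ligase that marks p53 for degradation. It had 48.2, 55.1, 47.7 and 49.0 TPM in SCI7. There Rpl5 ranked 2 from the lowest of the 73 core genes, whose median was 441 TPM. Whether all reads of Rpl5 were assigned to it was not tested. In OVX2_SCI7 it had 42.4, 26.2, 23.4 and 27.2 TPM, and in OVX8_SCI7 21.3, 26.9, 25 and 28.2 TPM. Every library from an ovariectomized mouse was below every SCI7 library. In CPM they were again all below SCI7: 39.6, 36.3, 32.3 and 30.2 in SCI7, 25.9, 14.2, 19.5 and 21.3 in OVX2_SCI7, and 17.4, 17.7, 15.7 and 18.6 in OVX8_SCI7. The log2 fold change was -0.99 in OVX8_SCI7 (SE 0.17, adjusted p = 0.0143, edgeR), and Rpl5 fell there to 0.50 of its SCI7 mean. In OVX2_SCI7 it was -0.77 (SE 0.17, adjusted p = 0.0520, edgeR), which missed the threshold; these comparisons share the SCI7 libraries. Rpl5 made up 0.29% ± 0.06 of the summed 60S TPM in SCI7 and 0.08% ± 0.02 in OVX8_SCI7 (SD, n = 4 each).

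Within OVX2_SCI7, Rpl5 did not follow the split of the family. In replicate 2 the family, at 42790 TPM, stood next to the highest SCI7 library (42782 TPM) while Rpl5, at 26.2 TPM, was as low as in OVX8_SCI7. In replicate 1 the family was within the SCI7 range and Rpl5, at 42.4 TPM, was nearer to SCI7 than in any other library of an ovariectomized mouse. Fragment length was 274 bases in replicate 2 and 229 bases in replicate 1. Rpl11, the partner in the 5S particle, named here after its values were seen, held 147, 112, 99.9 and 152 CPM in SCI7 and 281, 191, 170 and 176 CPM in OVX8_SCI7, with no overlap, and its log2 fold change of 0.68 did not pass the test (SE 0.33, adjusted p = 0.134, edgeR).

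The negative direction of Rpl5 held under all 27 alternatives in both comparisons, with log2 fold changes of -1.06 to -0.46 in OVX8_SCI7 and -0.93 to -0.35 in OVX2_SCI7. In OVX8_SCI7 it kept its call under 24 of the 27. The exceptions were the fit with GC content and length (log2 fold change -0.46, adjusted p = 0.108), the fit with fragment length (-0.66, adjusted p = 0.719) and the fit without OVX8_SCI7 replicate 2 (-1.0, adjusted p = 0.0573), all by edgeR. Over the alternatives the adjusted p ranged from 1.4e-05 to 0.719. In OVX2_SCI7 it passed under 6 of 27. At 42.7%, its longest coding transcript ranked 3 from the lowest in GC content among the tested genes.

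**Figure D3:**
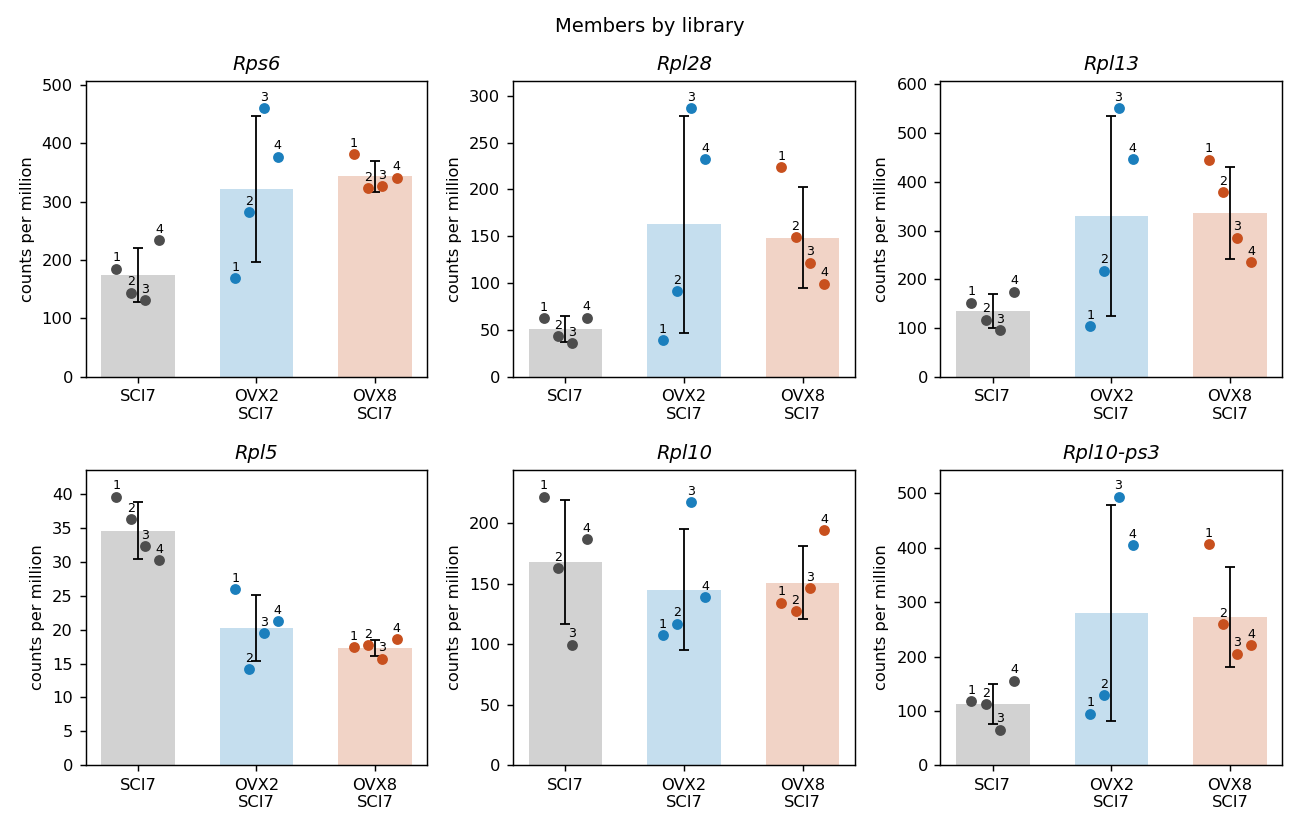
CPM of 6 genes by library. Points are libraries with their replicate number, bars are means and error bars are SD (n = 4). Rps6, Rpl28, Rpl13 and Rpl10-ps3 lie higher in all OVX8_SCI7 libraries than in all SCI7 libraries, Rpl5 lies lower, and the groups overlap for Rpl10.

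The other genes with a negative log2 fold change in OVX8_SCI7 were Rpl9-ps6 (-0.53), Rpl22l1 (-0.40), Rpl10 (-0.16) and Rps18-ps6 (-0.14), none of which passed the test (adjusted p = 0.231, 0.430, 0.686 and 0.850, edgeR). In OVX2_SCI7 the same 5 genes were the negative ones, with values from -0.77 to -0.05.

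Rpl10 and its retrocopy Rpl10-ps3 gave values on opposite sides of the family. Rpl10 is a late-joining 60S protein near the catalytic centre of the ribosome, and the open reading frame of Rpl10-ps3 is identical to that of Rpl10 over all 645 bases, so reads in it cannot be told apart. Their first 90 bases, shown because both genes share each letter, read as follows.
Rpl10 and Rpl10-ps3: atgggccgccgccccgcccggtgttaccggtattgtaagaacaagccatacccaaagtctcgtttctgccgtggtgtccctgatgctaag
Rpl10 had 222, 163, 99.8 and 187 CPM in SCI7 and 135, 128, 146 and 194 CPM in OVX8_SCI7, with overlapping groups. Rpl10-ps3 had 118, 112, 65.9 and 156 CPM in SCI7 and 407, 260, 205 and 221 CPM in OVX8_SCI7, with no overlap, a log2 fold change of 1.28 (SE 0.48, adjusted p = 0.0665, edgeR). Summed, they had 859 ± 262 TPM in SCI7, 1377 ± 688 TPM in OVX2_SCI7 and 1492 ± 171 TPM in OVX8_SCI7 (SD, n = 4 each). The sum therefore leaned upward with the rest of the family. The share of that sum given to the retrocopy was 34.4% to 44.4% in SCI7, 45.3% to 72.0% in OVX2_SCI7 and 49.4% to 72.8% in OVX8_SCI7. Values for either gene alone are uncertain.

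After ovariectomy 2 weeks before injury the family leaned the same way, with libraries that split. Of 83 genes, 78 had a positive log2 fold change against SCI7 and the median was 0.76, against 0.04 over all genes. None of the 83 was called by edgeR, against a background of 0.0% in either direction; at an unadjusted p below 0.05, 35 were higher and 1 was lower, together 43.4% against 32.5% of all genes. DESeq2 called 16 (15 higher, 1 lower), a share of 19.3% against 20.8% of all genes. Limma-voom called 1 (1.20%, background 5.01%) and limma-trend on log2(TPM + 1) 0 (background 0.09%). No gene had all 4 OVX2_SCI7 libraries above SCI7 (background 6.13%), and 1, Rpl5, had all 4 below (background 6.29%). In replicates 1 and 2 only 1 and 2 of the 83 genes were above their own mean over the 12 libraries, and in replicates 3 and 4 it was 82 and 81. Without replicate 1, 45 of 83 genes were called (44 higher), where the background was 34.7% of all genes. Without replicates 1 and 2 it was 76 of 83 (75 higher), a share of 91.6%, with a background of 38.8%. That last fit leaves out the libraries in which the family was low, so its count describes replicates 3 and 4 and does not stand for the group.

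The largest OVX2_SCI7 values were those of Rpl28 (log2 fold change 1.66), Rpl36 (1.53), Rps16 (1.52), Rps14 (1.45), Rps27rt (1.4) and Rpl27 (1.33), with adjusted p from 0.0622 to 0.23 (edgeR). For Rpl28 the libraries read 39.2, 91.6, 287 and 232 CPM, and for Rps6 170, 281, 461 and 377 CPM. In both genes replicate 1 lay within the SCI7 range and the other 3 libraries lay above it.

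OVX8_SCI7 and OVX2_SCI7 were also set against each other. The median log2 fold change over the family was -0.11, against -0.03 over all genes, and 18 of 83 were positive. This direction turned under other settings: the median was 0.16 with 76 of 83 positive by limma-trend on log2(TPM + 1), 0.07 with 55 positive by limma-voom, 0.01 with 46 positive with GC content and length in the fit, and 0.23 with 80 positive without OVX2_SCI7 replicate 3. Without OVX2_SCI7 replicate 4 it was 0.04, with 56 positive. Other left-out libraries moved it further below 0: -0.33 with 0 positive without replicate 1, -0.31 with 4 positive without replicate 2, and -0.66 with 0 positive without both. In that last fit 56 of 83 had an unadjusted p below 0.05 (edgeR), against 1141 of 18426 genes, and 0 were called. It leaves out the libraries in which the family was low, so its direction and count follow from that choice. They do not stand for the group. With all 12 libraries, no gene of the family was called by edgeR, DESeq2 or limma, and 0 had an unadjusted p below 0.05 by edgeR. Ranges that did not overlap were found in 0, where the background was 0.0% of genes called and 1.32% with ranges apart. The values farthest below 0 were those of Rps27rt (-0.63), Rpl22l1 (-0.35), Rpl36a (-0.29), Rpl37a (-0.28), Rpl34 (-0.26) and Rps28 (-0.26). The highest were Rps4l (0.12), Rpl3 (0.11), Rpl4 (0.10), Rps6 (0.09), Rpl7l1 (0.08) and Rpl8 (0.07). A p that misses the threshold does not show that the groups were alike: the SD of the summed TPM in OVX2_SCI7 was 30984.

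The levels of the genes differed far more than their changes. By mean TPM over the 12 libraries the highest were Rpl13a (1883), Rps29 (1384), Rps24 (1384), Rpl41 (1348) and Rps15 (1345). The lowest tested were Rps18-ps6 (3.72), Rpl9-ps6 (6.94), Rpl12 (23.1), Rps19bp1 (26.6) and Rps4l (27.5). Rpl12 and Rpl5 were the 2 lowest core genes in every group, although the ribosome holds each protein in equal number. The order of the 73 core genes was similar between libraries, with rank correlations of 0.66 to 0.996 over 66 pairs of libraries that share gene lengths and annotation. In SCI7, 2 core genes had a mean above 1000 TPM, and in OVX8_SCI7 20 did.

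The size of a difference depended on the unit, since TPM divides by an effective length that the quantifier derived from fragment length and isoform choice. Rps27, a short 40S gene, had an effective length of 153, 140, 143 and 119 bases in SCI7 and of 58.8, 61.4, 71.8 and 90.3 bases in OVX8_SCI7. Its level accordingly read 605, 592, 479 and 711 TPM in SCI7 and 2395, 1628, 1296 and 1109 TPM in OVX8_SCI7, with no overlap and a ratio of means of 2.69. In CPM it read 62.6, 47.4, 38.6 and 47.0 against 98.8, 61.5, 54.0 and 57.3, with overlap and a ratio of 1.39. Rps20, another 40S gene, moved the opposite way, its effective length going from a mean of 606 to 1147 bases: in TPM it went from 281 ± 57 to 214 ± 63, and in CPM from 101 ± 21 to 145 ± 48 (SD, n = 4 each). Rpl7l1, a paralog that acts in ribosome assembly, likewise went from 72.9 to 48.1 TPM while its CPM were 47.0 and 50.5.

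Over the 83 genes, the gap between the log2 ratio of TPM and that of CPM followed the log2 ratio of effective length with a rank correlation of -0.997 in OVX8_SCI7 and -0.99 in OVX2_SCI7. This is largely arithmetic, since one value is divided by the other. The direction differed between TPM and the count fit for 6 genes in OVX8_SCI7: Rpl10, Rpl30, Rpl7l1, Rps18-ps6, Rps20 and Rps23. Genes were also ordered by their longest coding transcript, which need not be the one expressed. In the 28 shortest genes (374 to 768 bases) the median log2 ratio in OVX8_SCI7 was 1.16 in TPM and 0.69 in counts. In the 28 longest (1094 to 5179 bases) it was 0.62 in TPM and 0.55 in counts. In TPM, 58 of 83 genes had OVX8_SCI7 libraries all above SCI7, against 41 in CPM. Over all genes the share was 19.6% in CPM. For TPM it was not computed, so the 58 has no background here and describes only the change of unit.

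**Figure D4:**
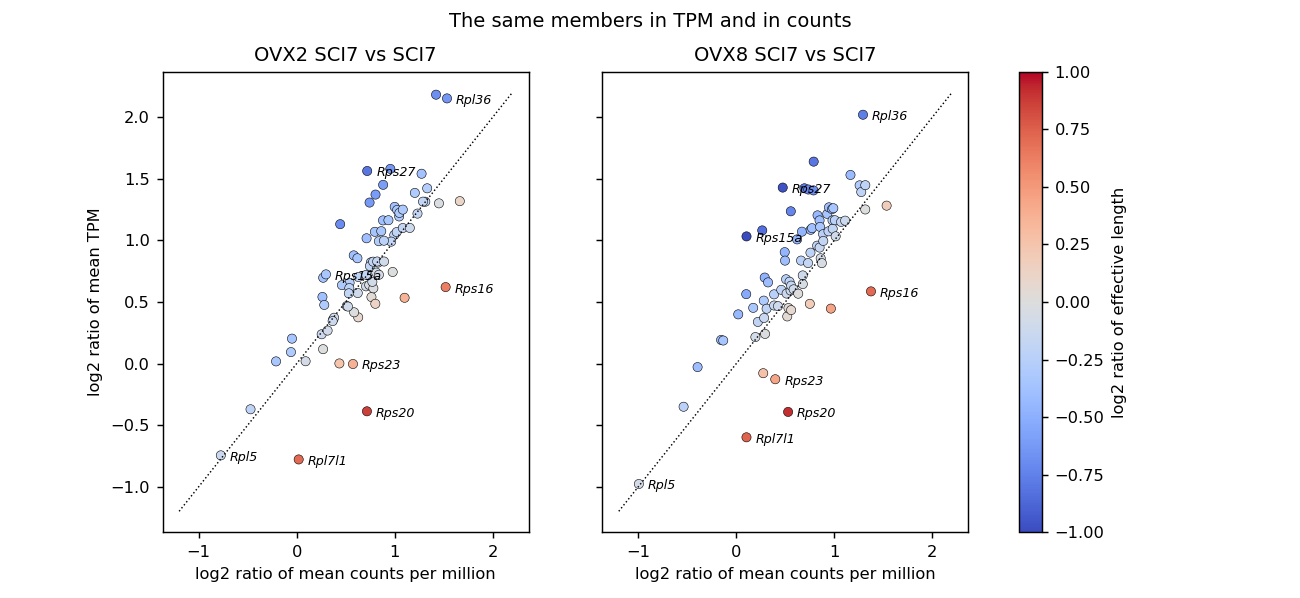
Log2 ratio of mean TPM against log2 ratio of mean CPM for the 83 tested genes, coloured by the log2 ratio of effective length. On the dotted line both units give the same ratio. Rps27 and Rpl36 (effective length down) lie above it, and Rps20, Rpl7l1, Rps16 and Rps23 (effective length up) lie below it.

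The size of the change was also related to base composition. The longest coding transcripts of the tested genes had a median GC content of 50.9% (40.6% to 62.4%), close to the 50.2% of 15004 other coding genes, but a median length of 887 bases against 3198. Across the 83 genes, which share the same libraries, the log2 fold change in OVX8_SCI7 had a Pearson r of 0.55 and a Spearman rho of 0.53 with GC content, and -0.18 and -0.15 with log2 length. In OVX2_SCI7 the values with GC content were 0.48 and 0.48. The 28 genes of highest GC content (53.3% to 62.4%) had a median of 0.81 in OVX8_SCI7 and the 28 of lowest (40.6% to 48.6%) had 0.39. Rps15, with the highest GC content, had a log2 fold change of 1.17. Of the 2 genes with a lower GC content than Rpl5, Rpl22l1 had -0.40 and Rps20 had 0.53. The longest coding transcript need not be the one expressed. For Rps20 it has 3706 bases, while the mean effective length in SCI7 was 606 bases, so its place by GC content is uncertain. The 26 core genes with a pyrimidine tract within 5 bases of the start had a median of 0.70 and the 28 without had 0.60, with wide overlap (0.10 to 1.53 and -0.99 to 1.37).

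**Figure D5:**
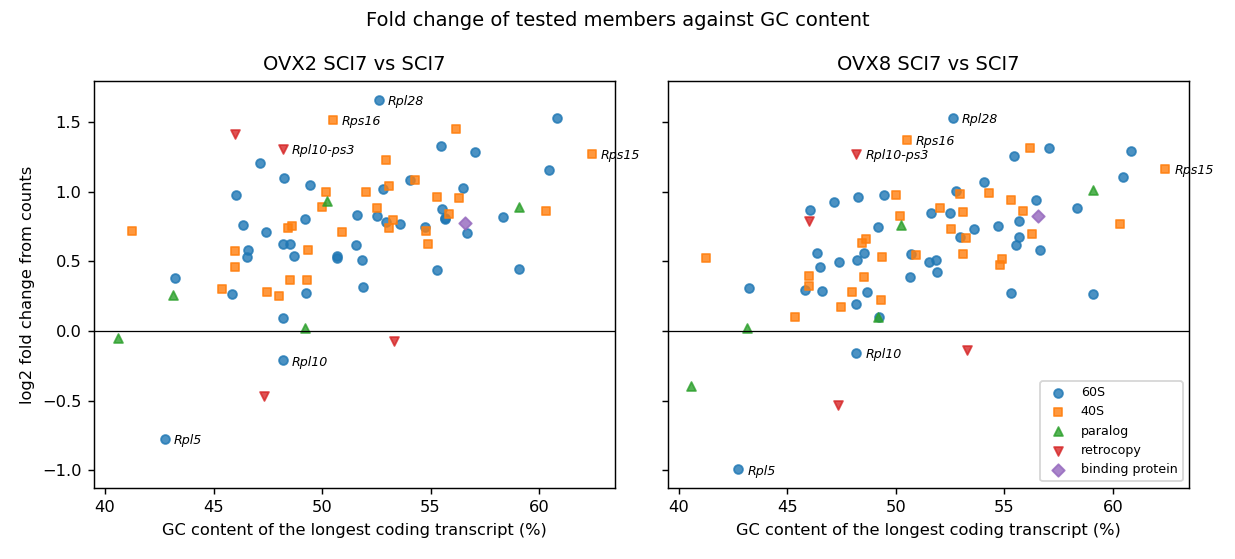
Log2 fold change from counts against the GC content of the longest coding transcript for the 83 tested genes, in both comparisons with SCI7. Genes of higher GC content tend to have higher values; Rpl5 at 42.7% lies lowest in both panels.

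Pairs of paralogs did not change in step in every case. Rpl22 and its paralog Rpl22l1, whose proteins can replace each other in the 60S subunit, had log2 fold changes of 0.10 and -0.40 in OVX8_SCI7 (SE 0.23 and 0.37, adjusted p = 0.760 and 0.430, edgeR). In OVX8_SCI7 replicate 1 both stood apart from the other 3 libraries, at 144 and 38.5 CPM against 98.1 to 100 and 17.6 to 20.1 CPM. Rpl36a and Rpl36al, with open reading frames 87.9% identical, had 0.29 and 0.76, and only Rpl36al had ranges that did not overlap. Rps27l, a p53-responsive paralog of Rps27, had 0.02 (adjusted p = 0.979, edgeR) and 20.3 ± 7.2 and 20.5 ± 7.3 CPM (SD, n = 4 each). Rps27rt, whose open reading frame of 255 bases is identical to that of Rps27, had 0.79 (SE 0.79, adjusted p = 0.456, edgeR) at 0.65 to 11.5 CPM over all libraries, and its reads cannot be told from those of Rps27. Rpl7l1 had 0.10 against 0.29 for Rpl7, and Rps4l had 1.01 against 0.39 for Rps4x. These differences within pairs were not tested.

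The 5 untested genes were nearly absent. Rpl10l had 0 counts in every library, which allows up to 3 counts per library (counting error only). Rpl27rt had a highest count of 2.53, Rpl3l of 7, Rps23rg1 of 10.3 and Rpl39l of 11 in any library. Rpl3l is a striated muscle paralog of Rpl3, and Rpl10l and Rpl39l are expressed mainly in testis.

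Noncoding copies shared the reads of some genes. Pseudogenes were tied to a gene only where their symbol or description named it, so copies under other names are missed and the shares may be too low. Of the 88 genes, 60 had at least 1 pseudogene tied in this way. In 70 of the 83 tested genes these took under 5% of the summed counts. The largest shares were in Rps13 (34.8%), Rps23 (34.4%) and Rpl31 (27.8%). The share was 16.2% for Rps6, and with the copies' counts added to each gene, Rps6, Rpl28 and Rpl27 no longer passed the test in OVX8_SCI7 while Rpl13, Rps4l, Rps19bp1 and Rpl5 did.

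The 6 ribosomal protein genes given apart leaned the same way in the count fit, but not all of them in TPM. All 6 had positive log2 fold changes in OVX8_SCI7 (median 0.82) and in OVX2_SCI7 (median 0.86), and 0 of 6 were called by edgeR in either. At an unadjusted p below 0.05 (edgeR) it was 2 of 6 in each (33.3%). Over all genes that share was 43.2% in OVX8_SCI7 and 32.5% in OVX2_SCI7. DESeq2 called 1 of 6 higher in each, limma-voom 0, and limma-trend on log2(TPM + 1) 1 in OVX8_SCI7 and 0 in OVX2_SCI7. Over all genes these methods called 35.9%, 27.7% and 16.7% in OVX8_SCI7. In OVX2_SCI7 they called 20.8%, 5.01% and 0.09%. Rpsa, a 40S protein, had 805, 767, 546 and 901 TPM in SCI7 and 629, 602, 575 and 599 TPM in OVX8_SCI7, with means of 755 and 601 TPM, although its log2 fold change from counts was 0.49 (SE 0.29, adjusted p = 0.212, edgeR). With fragment length in the fit, the medians of the 6 were -0.73 and -0.79. Fau, which encodes a ubiquitin-like protein fused to a 40S protein, went from 312, 306, 256 and 428 TPM in SCI7 to 1119, 835, 729 and 586 TPM in OVX8_SCI7, with no overlap (log2 fold change 1.12, SE 0.42, adjusted p = 0.0615, edgeR). Rplp0, the base of the ribosomal stalk, went from 612, 569, 342 and 748 TPM to 1049, 1094, 918 and 980 TPM, also with no overlap (log2 fold change 0.96, SE 0.41, adjusted p = 0.0967, edgeR).

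Other genes of the translation pathway did not share one direction in OVX8_SCI7. Over all genes tested, 11.9% rose and 15.6% fell in that comparison. Of 21 translation factors and companions with TOP-type mRNAs, 2 rose and 3 fell (9.52% and 14.3%, median 0.21), shares near those of all genes. Eef2, the elongation factor that moves the ribosome along the mRNA, rose (log2 fold change 0.83, SE 0.21, adjusted p = 0.0181, edgeR), and Eif2s3x, a subunit of the initiator tRNA carrier, fell by 0.54 on the log2 scale (SE 0.15, adjusted p = 0.0266, edgeR). Of 20 genes of mTOR signalling and TOP mRNA control, 4 rose and 3 fell (20% and 15%, median 0.31). Both genes with the smallest p fell: Larp4, an RNA-binding protein that protects poly(A) tails, by 1.08, and Rps6kb1, the kinase that phosphorylates Rps6, by 0.93 (adjusted p = 0.0143 each, edgeR). Of 48 genes of ribosome biogenesis and RNA polymerase I, 8 rose and 13 fell (16.7% and 27.1%, median 0.15). Among them Polr1f, a subunit of the polymerase, fell by 0.96, and Nop58, a core protein of box C/D snoRNPs, fell by 0.76 (adjusted p = 0.0143 each, edgeR).

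The shares that follow are to be read against the same 11.9% rising and 15.6% falling over all genes. Of 10 noncoding snoRNA host genes, 0 rose (DESeq2 and limma-voom 0, limma-trend on log2(TPM + 1) 1) and 2 fell (20%). These were Snhg1, by 0.77, and Snhg3, by 0.90 (adjusted p = 0.0408 and 0.0450, edgeR). Of 76 mitochondrial ribosomal proteins, 14 rose and 3 fell (18.4% and 3.95%, median 0.21). Mrps34 had 1.22 and Mrpl50 had -0.64 (adjusted p = 0.0163 and 0.0185, edgeR). Of 15 p53 targets, 3 rose and 4 fell (20% and 26.7%). Phlda3, an Akt inhibitor, had 0.91, and Ccng1, a cyclin, had -0.94 (adjusted p = 0.0151 each, edgeR). Of 12 targets of the integrated stress response, which lowers translation initiation, 3 rose and 1 fell (25% and 8.33%). Ppp1r15a, which directs the phosphatase that ends this response, had 1.28 (SE 0.23, adjusted p = 0.0143, edgeR) and Sesn2 had 0.61 (SE 0.16, adjusted p = 0.0181, edgeR). In OVX2_SCI7 none of these lists had a gene called by edgeR; at an unadjusted p below 0.05 it was 7 of 21 translation factors, 9 of 20 mTOR genes, 27 of 48 biogenesis genes, 1 of 10 snoRNA hosts, 27 of 76 mitochondrial ribosomal proteins, 9 of 15 p53 targets and 7 of 12 stress response targets, where it was 32.5% of all genes. The shares of translation factors (33.3%) and mitochondrial ribosomal proteins (35.5%) were thus near that of all genes. There DESeq2, which called 20.8% of all genes, called 3 translation factors (2 higher), 6 mTOR genes (3 higher), 19 biogenesis genes (6 higher), 0 snoRNA hosts, 20 mitochondrial ribosomal proteins (19 higher), 7 p53 targets (5 higher) and 5 stress response targets, all higher. Limma-voom, which called 5.01% of all genes, called 2 mTOR genes and 5 biogenesis genes, all lower. Limma-trend on log2(TPM + 1), which called 0.09% of all genes, called 0 genes of these lists. With GC content and length, or with fragment length, in the fit, 0 genes of these lists were called by edgeR in OVX8_SCI7. Both fits called 0.0% of all genes, so this says nothing particular about these lists.

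Of 14 lists of cell type markers, 2 had summed TPM higher in all OVX8_SCI7 libraries than in all SCI7 libraries (microglia and macrophages, and ependymal cells), 1 did in OVX2_SCI7 (ependymal cells), and none was lower throughout in either. All 10 microglia and macrophage markers were measured (Aif1, Csf1r, Cx3cr1, P2ry12, Tmem119, Trem2, C1qa, Cd68, Itgam and Lyz2), none at 0. Their summed level ran from 1202 to 7888 TPM in SCI7, 2448 to 16545 TPM in OVX2_SCI7 and 9999 to 14390 TPM in OVX8_SCI7. In OVX8_SCI7, 4 of the 10 rose (40%, background 11.9%) and 1 fell (10%, background 15.6%). With GC content and length, or with fragment length, in the fit, 0 were called, where 0.0% of all genes were called in each. By library the sums were 2448, 4204, 16545 and 13516 TPM in OVX2_SCI7, low and high in the same replicates as the ribosomal protein genes. In SCI7 replicate 3, where the family was lowest at 24323 TPM, the markers were lowest as well, at 1202 TPM. Within OVX8_SCI7 this order was not kept. Replicate 4 had the lowest sum of the family in that group, 51702 TPM, and the highest marker sum, 14390 TPM. Replicate 2, at 60757 TPM for the family, had the lowest marker sum, 9999 TPM. The 6 ependymal markers summed to 44.1 to 52.6 TPM in SCI7, 69.3 to 108.9 TPM in OVX2_SCI7 and 68.3 to 87.8 TPM in OVX8_SCI7. Of the 5 tested, 1 rose in OVX8_SCI7 (20%, background 11.9%). The 9 neuron markers overlapped between the groups, at 1252 to 4015 TPM, 729 to 3954 TPM and 1364 to 2594 TPM. Their sum was highest in SCI7 replicate 3 and OVX2_SCI7 replicate 1, the libraries with the lowest sums of the family, and lowest in OVX2_SCI7 replicate 3, which had the highest. Within OVX8_SCI7, by contrast, neuron markers were lowest in replicate 4, at 1364 TPM, where the family was also lowest in that group. Skeletal muscle markers summed to 37.7 to 114 TPM, 64.0 to 83.1 TPM and 54.9 to 180 TPM in SCI7, OVX2_SCI7 and OVX8_SCI7, with overlap. Of these 10, 2 rose in OVX8_SCI7 (20%, background 11.9%). Sensory neuron markers reached 887 TPM in OVX2_SCI7 replicate 2, against 40.8 to 213 TPM in all others. The part of these cell types in the family's levels was not tested.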

How the data were processed

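Total RNA of 12 cord samples (3 groups of 4) was sequenced as paired-end libraries. Per the submitters' processing notes, fastp 0.23.4, HISAT2 2.2.1, RSEM 1.3.3 and GRCm39 were used. The library kit and strand setting are not given in the sources used here, so antisense reads cannot be set apart. The authors deposited expected counts, TPM and FPKM per gene. 9 further value columns were not used.

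Expected counts were rounded and tested with edgeR 4.0.16 (R 4.3.3): filterByExpr by group, TMM scaling, 1 robust quasi-likelihood fit of all 12 libraries by group, and Benjamini-Hochberg adjustment over the 17820 genes tested. CPM are TMM-scaled. Depth was 18222809 to 31781728 counts. Effective length was recovered as count × 1e9 / (FPKM × total count), and fragment length from genes with 1 transcript of at least 1000 bases and at least 200 counts in every library. GC content, length and open reading frames (the longest in any coding transcript) came from GENCODE M21, with 88 of 88 genes matched. RefSeq promoters matched 64 of 88. Same-numbered replicates were not treated as pairs.

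The genes, lists and tests were chosen with earlier results of these data known. Genes named in each comparison are the 6 with the largest log2 fold change along the family's median and the 6 farthest against it. Also named are the 5 highest and 5 lowest by TPM, paralogs and retrocopies with their parents, called genes, and the 2 smallest p-values of each other list. Alternatives used DESeq2 1.42.0, limma 3.58.1, other filters and scaling, GC and length, left-out libraries and a replicate block. One gene of a list is not reported here. Copies' counts summed to their gene and fragment length as a term were added after the data were seen. The fit was tested on simulated counts with the same spread for every gene and no differences between libraries beyond depth. That run therefore says nothing on the shifts in GC content and fragment length seen here.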

Additional observations from a re-analysis of the deposited data

Results flagged for a closer look

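In 6 of 132 groups of 4 values that were examined (named genes in CPM, and library measures), 1 library lay far from the other 3. Chance flags about 1 in 20 such groups. All 4 genes concerned stood out in OVX8_SCI7 replicate 1: Rpl22 at 143.8 CPM (its group's remaining range was 98.1 to 100), Rpl22l1 at 38.5 CPM (17.6 to 20.1), Rps24 at 362 CPM (204 to 223) and Rps27 at 98.8 CPM (54.0 to 61.5). That library also had the highest summed level of the family in its group, at 79018 TPM, and the longest mean fragment of all libraries, at 305 bases. In OVX2_SCI7 replicate 1, mitochondrial genes took 8.33% of counts, against 2.36% to 3.13% in the other 3 libraries. Its rank correlation of deviation with GC content was -0.41, against 0.38 to 0.51.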

How the results depend on the processing

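For OVX8_SCI7 against SCI7, 7 of 83 genes were called. With the share of all genes called in the same fit in parentheses, the count was 3 with no filter on low counts (9.78%), 19 with DESeq2 (35.9%), 14 with limma-trend on log2(TPM + 1) or log2(TPM + 0.1) (16.7% or 16.0%), 43 with the 8 libraries alone (43.0%), 4 with pseudogene counts added (27.5%), 46 without replicates 1 and 2 of OVX2_SCI7 (41.9%), and 0 with GC content and length or with fragment length in the fit (0.0% each). The family's own shares were 3.45%, 22.9%, 16.9%, 51.8%, 4.82%, 55.4% and 0%, above those of all genes by more than 1 percentage point only with the 8 libraries alone and without replicates 1 and 2 of OVX2_SCI7. The fit without replicates 1 and 2 leaves out the libraries in which the family was low, and they enter the shared spread. Its counts, here and for OVX2_SCI7 below, follow partly from that choice. Leaving out 1 library gave 0 to 25, in fits that called 0.0% to 37.2% of all genes. For OVX2_SCI7 against SCI7 the count of 0 became 1 with the stricter filter (7.96% of all genes), with limma-voom (5.01%) and with coding nuclear genes only (4.76%), 16 with DESeq2 (20.8%), and 76 without replicates 1 and 2 (38.8%). Leaving out 1 library gave 0 to 45, in fits that called 0.0% to 34.7% of all genes. OVX8_SCI7 against OVX2_SCI7 stayed at 0 in every alternative run, while its median turned positive in 6 of 27.

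Same-numbered libraries did not deviate together throughout (correlations of -0.63 to 0.50). With so few libraries this cannot show whether the numbers pair anything. With a replicate block the count in OVX8_SCI7 was 2 (Rps6 and Rpl5, where 19.0% of all genes were called) and in OVX2_SCI7 0. With fragment length as a term, the genes that rose in OVX8_SCI7 turned negative: Rpl13 to -0.67, Rpl27 to -0.34, Rpl28 to -0.81, Rps19bp1 to -0.12, Rps4l to -0.57 and Rps6 to -0.0022, with adjusted p of 0.719 to 0.998 (edgeR). That fit rests mostly on OVX2_SCI7, where lengths span 229 to 304 bases. The family's median moved from 0.66 to -0.74 in OVX8_SCI7 and from 0.76 to -0.61 in OVX2_SCI7. In every other alternative it stayed positive in both, at 0.32 to 1.3. The cause was not tested. Counts were too few to test 5 genes.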
